A study of Mus musculus with 12 samples.

Results

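The nuclear genes of the mitochondrial respiratory chain were followed in the livers of mice given an alkylating agent. Members were taken by gene name: every gene whose symbol on the array platform begins with Nduf, Uqcr, Atp5 or Cox followed by a digit from 4 to 8, and the succinate dehydrogenase genes Sdha to Sdhd. This gave 156 probe sets for 84 genes, out of 22626 probe sets and 12393 genes in all, and where a gene had several probe sets the one brightest on average over the 12 arrays stood for it. By role, 33 members were subunits of complex I, 5 were complex I assembly factors of the Ndufaf family, 4 belonged to complex II, 8 to complex III, 17 to complex IV and 17 to ATP synthase. A further 8 probe sets of this kind carried several gene symbols and were left out.

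Liver RNA from 12 C57Bl/6J mice aged 6 to 8 weeks was hybridised to 1-colour Affymetrix arrays, 1 array per animal, with 3 animals in each of 4 groups. The groups were Aag knock-out mice treated with methyl methanesulfonate (MMS), untreated Aag knock-out mice, MMS-treated wild-type mice and untreated wild-type mice. MMS, a compound that methylates DNA bases, was injected once into the peritoneum at 75 mg/kg, and livers were taken 6 hours later. Aag, encoded by the gene Mpg, is a DNA glycosylase that cuts out methylated bases and so begins base excision repair. The labels do not say whether the untreated mice received a vehicle injection, nor how the knock-out allele was made.

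The respiratory chain passes electrons from NADH (through complex I) and from succinate (through complex II) to ubiquinone, on to complex III, and by way of cytochrome c to complex IV, where oxygen is reduced to water. Complexes I, III and IV pump protons across the inner mitochondrial membrane, and ATP synthase uses the returning protons to make ATP. All complexes except II also hold subunits encoded in mitochondrial DNA. In liver this ATP supports glucose production, urea synthesis and detoxification, and repair of alkylated DNA draws on NAD, the carrier that feeds complex I, through poly(ADP-ribose) polymerase.

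The deposited values are on a log2 scale, and array medians lay between 7.42 and 7.75. Of the 2 Mpg probe sets, 1 was lower on all knock-out arrays than on all wild-type arrays (log2 difference -1.17, exact two-sided permutation p = 0.005 over 400 regroupings, the smallest they can give). At the other the difference was -0.31 (exact permutation p = 0.04), and where either lies relative to the deletion is not known here. The 9 measured hepatocyte markers averaged 13.74 to 14.02 on every array, as the liver label says. Some arrays stood apart in ways that touch the results below. Untreated wild-type array 3 and untreated knock-out array 3 held skeletal muscle transcripts. The 5′ to 3′ signal of the control probe sets, a measure of how far labelling reached from the 3′ end of a transcript, was high on MMS-treated knock-out arrays 1 and 2. Pancreatic acinar markers averaged 9.36 on MMS-treated knock-out array 1 and 7.39 on MMS-treated wild-type array 1, against 5.19 to 6.34 on the untreated arrays. The part of pancreatic transcripts in the values below was not tested.

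In wild-type liver no respiratory chain gene passed the test 6 hours after MMS. The share of all probe sets called there was 6.44% (limma, adjusted p under 0.05), and 0 of the 84 members were among them. At an unadjusted p under 0.05 there were 5 members, all lower after MMS, and 23.2% of all probe sets. The members' median log2 difference, MMS-treated minus untreated, was -0.086, against -0.054 over all probe sets. Of the 84 differences 68 were below 0, but this direction depended on the scaling: with each array centred on its own median the members' median was 0.11 and that of all probe sets 0.14. In 2 members all treated arrays lay above all untreated arrays and in 21 all lay below, as in 11.3% and 20.5% of all probe sets.

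The intervals were narrow enough to bound most members at the probe set used. For 80 of the 84 genes the 95% interval of the wild-type MMS response lay within a 2-fold change either way, and for 64 it lay within 0.5 on the log2 scale. The 4 genes with wider intervals were Cox6a2, Cox7a1, Cox6b2 and Cox8b, all tissue isoforms of complex IV. Members varied little between animals of a group: the median residual SD was 0.128 over the members and 0.242 over all probe sets, and 74 of the 84 members lay below the latter. Most were bright, with 71 averaging above 11 and 7 below 8.

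**Figure D1:**
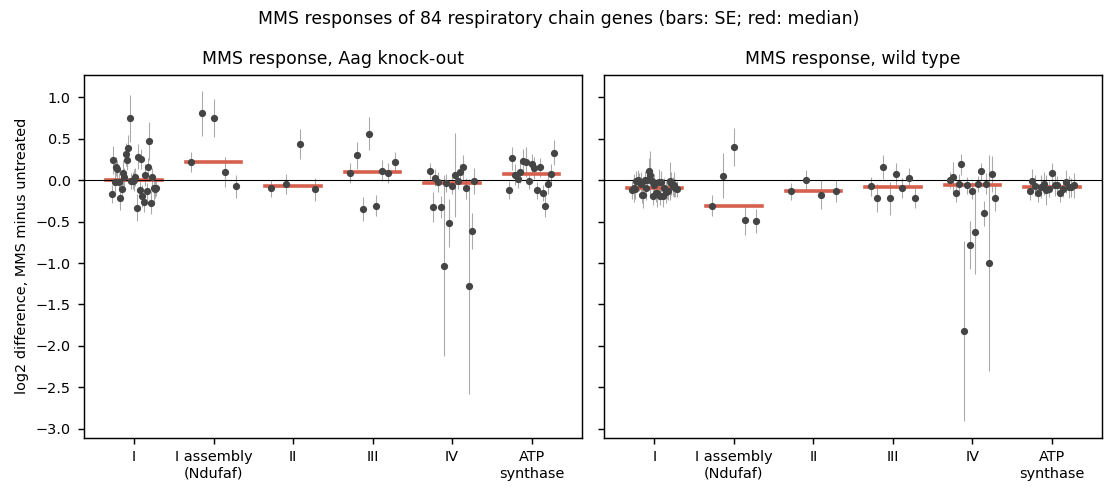
Log2 difference, MMS-treated minus untreated, for each of the 84 genes, grouped by complex, in Aag knock-out liver (left) and wild-type liver (right). Points are genes, grey bars 1 SE of the fit over 3 animals per group, red lines the median of a complex, which lay between -0.31 and 0.22. The far points of complex IV are Cox6a2 and Cox8b in both genotypes.

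Complex I takes electrons from NADH in its N module, hands them to ubiquinone in its Q module and pumps protons in its membrane-bound P module. In wild-type liver the median response was -0.11 for the 9 N module genes, -0.063 for the 4 Q module genes and -0.061 for the 19 P module genes, and over all 33 subunits the differences ran from -0.20 to 0.11. Ndufv1, the NADH-binding flavoprotein, read 12.84, 13.41 and 13.13 on the MMS-treated wild-type arrays, against 13.19, 13.12 and 13.24 on the untreated wild-type arrays. Ndufs1, which carries iron-sulphur clusters of the same module, read 11.72, 12.11 and 11.90 after MMS and 12.05, 11.99 and 12.11 without it. For both genes the groups overlapped, and MMS-treated array 1 was the lowest.

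Complex II, which oxidises succinate and belongs to the citric acid cycle as well, had a median wild-type response of -0.13 over its 4 genes. Sdha, its flavoprotein, read 13.20, 13.00 and 13.22 after MMS, against 13.30, 13.26 and 13.27 without it, a difference of -0.14 that did not pass the test although the groups did not overlap. In complex III the median was -0.084, with Uqcrc1, a core subunit, at -0.22 ± 0.20 and Uqcrfs1, the Rieske iron-sulphur protein, at 12.27, 12.61 and 12.43 on treated arrays against 12.49, 12.51 and 12.59 on untreated arrays. In complex IV the median was -0.063, and Cox4i1, the subunit that binds ATP, stayed between 13.04 and 13.23 on all 12 arrays.

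In ATP synthase the wild-type differences were small and mostly of 1 sign: 16 of its 17 genes had a difference below 0. Differences ran only from -0.16 to 0.088, and 0 were called. The median over all probe sets was also below 0, at -0.054. With each array centred on its own median it was 0.14, and the complex's median was above 0 too. Atp5b, the catalytic beta subunit of the F1 head, read 12.89, 13.38 and 13.14 after MMS and 13.15, 13.11 and 13.18 without it. Atp5a1, the alpha subunit, read 13.64, 13.42 and 13.68 after MMS and 13.72, 13.70 and 13.70 without it. The treated and untreated arrays overlapped for Atp5b and not for Atp5a1. The size of the complex's median depended on single animals. Without MMS-treated wild-type array 1 it was -0.0072, against -0.081 with it, and that of complex I was -0.015. Over all fits that left out 1 array it ran from -0.150 to -0.0072, and that of complex I from -0.141 to -0.015.

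**Figure D2:**
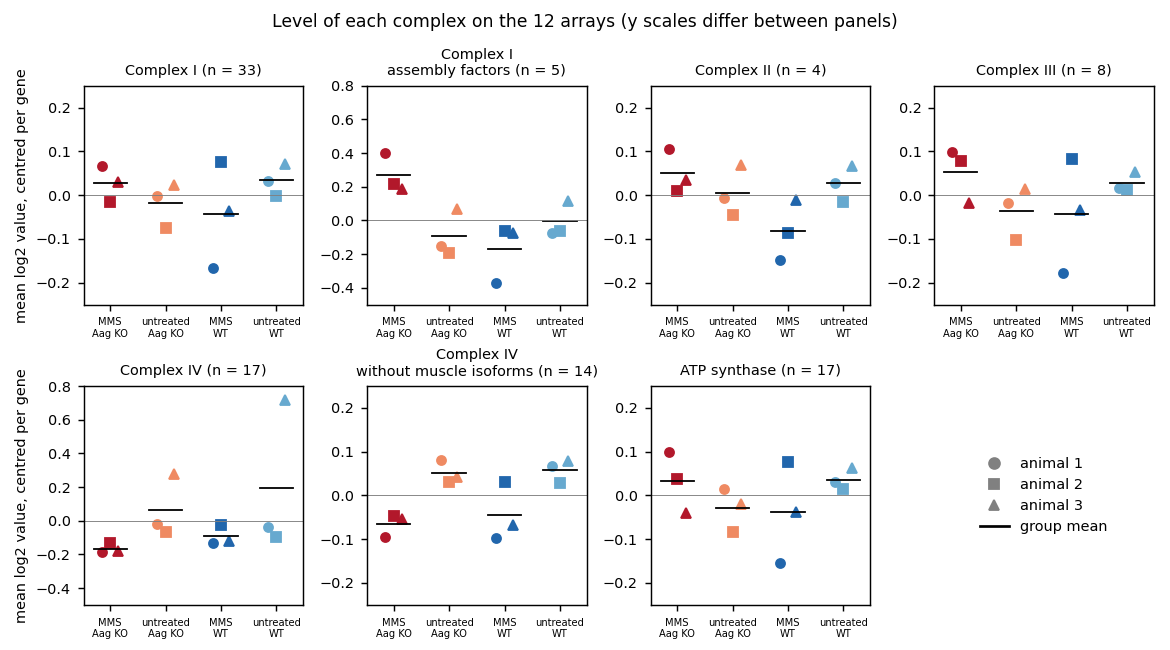
Mean log2 value of the members of each complex on every array, after centring each gene on its own mean over the 12 arrays. Groups run from MMS-treated knock-out at left to untreated wild type at right, symbols mark the animal and lines the group mean. All panels but those of the assembly factors and of the whole of complex IV stay within 0.18 of 0, while untreated wild-type array 3 reaches 0.72 in complex IV.

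In Aag knock-out liver 0 of the 84 members passed the test after MMS, where 1.51% of all probe sets were called. At an unadjusted p under 0.05 there were 13 members, 7 higher and 6 lower, and 24.8% of all probe sets. The members' median was 0.020, with 44 of 84 above 0, and by complex it was 0.0046 for complex I, -0.074 for II, 0.10 for III, -0.037 for IV and 0.074 for ATP synthase. Differences were spread more widely than in wild-type liver: complex I ran from -0.33 to 0.75, complex III from -0.35 to 0.56 and ATP synthase from -0.31 to 0.33. At the probe set used, the 95% interval stayed within a 2-fold change for 76 genes. Other probe sets of a gene could differ. For Ndufs8 the difference was 0.038 at the probe set used and 0.060 to 1.05 at the others, and for Cox5a 0.032 against -0.43 to -0.37. Among the 72 other probe sets of members, 17 had an unadjusted p under 0.05 and 0 were called. Of the members 12 had all treated arrays above all untreated arrays and 12 had them all below, where 12.9% and 13.8% of all probe sets did.

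Subunits of the same complex pointed in opposite directions. Uqcrc1 read 11.94, 12.13 and 11.63 on the MMS-treated knock-out arrays, against 11.22, 11.16 and 11.63 on the untreated knock-out arrays (log2 difference 0.56 ± 0.20, limma adjusted p = 0.118). Its partner in the core of complex III, Uqcrc2, read 12.94, 12.94 and 13.35 after MMS and 13.43, 13.44 and 13.29 without it (-0.31 ± 0.13, limma adjusted p = 0.17). In both genes treated arrays 1 and 2 stood apart and treated array 3 lay with the untreated arrays.

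The same split recurred in complexes I and II. Ndufb10, an accessory subunit of the membrane arm of complex I, read 13.03, 13.17 and 12.22 after MMS, against 12.23, 11.98 and 11.97 without it (0.75 ± 0.28, limma adjusted p = 0.142). Sdhc, a membrane anchor of complex II, read 11.98, 11.93 and 11.51 after MMS and 11.33, 11.21 and 11.55 without it (0.44 ± 0.18, limma adjusted p = 0.162). Uqcrb, a small subunit of complex III, read 12.99, 13.11 and 13.07 after MMS, against 13.48, 13.50 and 13.23 without it (-0.35 ± 0.15, limma adjusted p = 0.171). For this gene all 3 treated arrays were low at the probe set used. At the other Uqcrb probe set the knock-out response was -0.0011. The wild-type response was -0.061 there and 0.15 at the probe set used.

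Leaving out MMS-treated knock-out array 3 raised the count of called members in knock-out liver to 7, and the share of all probe sets called to 14.4%. Ndufaf3, Ndufb10 and Uqcrc1 were then higher (1.07, 1.04 and 0.70), and Uqcrc2, Atp5md, Ndufc2 and Cox8c lower (-0.45, -0.44, -0.36 and -0.78). Without both knock-out arrays numbered 3 the count was 6 (14.7% of all probe sets), and without untreated knock-out array 3 it was 1, Ndufaf4 (3.59%). With array weights estimated from the data it was 22 of the 84, where 25.6% of all probe sets were called.

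In knock-out liver, the arrays on which most of these members were high or low were those with an unusual 5′ to 3′ signal. The mean log2 ratio of the actin and Gapdh controls was -1.61, -1.51 and -2.46 on the MMS-treated knock-out arrays, against -2.54, -2.66 and -2.33 on the untreated knock-out arrays. It was -2.61, -2.001 and -2.46 on the MMS-treated wild-type arrays and -2.40, -2.41 and -2.27 on the untreated wild-type arrays. On MMS-treated wild-type array 2, the wild-type array with the highest ratio, Ndufb10 read 12.78, against 11.67 to 12.18 on the other 5 wild-type arrays. Uqcrc1 read 11.59 there, against 10.92 to 11.57 on the other 5, and Ndufaf3 read 9.31, against 8.35 to 9.001. Sdhc, at 11.55 on that array, lay within the 11.42 to 11.57 of the untreated wild-type arrays. Uqcrc2, at 13.45, was the highest of all 12 arrays, not low as on the treated knock-out arrays with a high ratio.

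With this ratio as a covariate in the fit, chosen with earlier results known, the knock-out response of Ndufb10 was 0.044, that of Uqcrc1 0.12, that of Sdhc 0.052 and that of Ndufaf3 0.21. The covariate's own slope was called for 3 of the 84 members (Ndufb10, Ndufs5 and Uqcrc1) and for 6.2% of all probe sets. Over the members the median size of the knock-out response was 0.134 in the main model and 0.070 with the covariate, and over all probe sets 0.260 and 0.201. The ratio was itself highest on 2 of the 3 treated knock-out arrays, and the part of RNA or labelling quality in these responses was not tested beyond this fit.

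**Figure D3:**
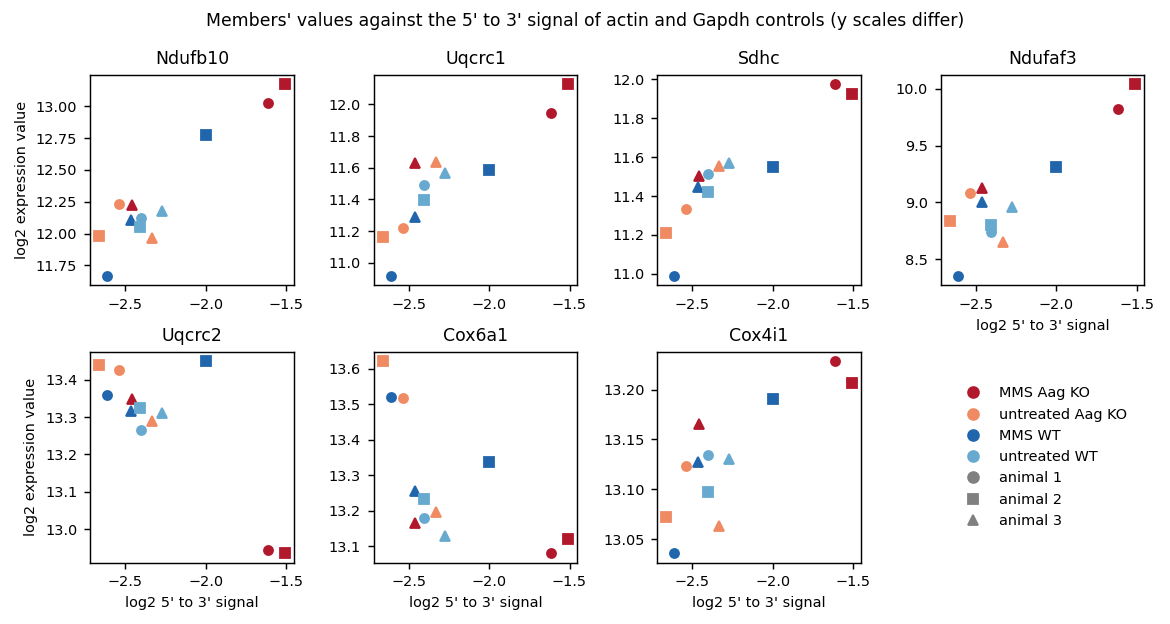
Log2 expression value of 7 members (vertical axes, with scales that differ between panels) against the mean log2 5′ to 3′ ratio of the actin and Gapdh controls (horizontal axes), 1 point per array. MMS-treated knock-out arrays 1 and 2 lie at -1.61 and -1.51 with high Ndufb10, Uqcrc1, Sdhc and Ndufaf3 and low Uqcrc2, while Cox4i1 spans only 13.04 to 13.23.

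The Ndufaf genes, whose products help to build complex I and are not part of the finished enzyme, had responses from -0.074 to 0.81 in knock-out and from -0.49 to 0.40 in wild-type liver. Averaged over the genotypes 1 of the 84 members passed the test, Ndufaf4, which was higher after MMS. Of all probe sets 11.3% were called there, 4.61% as higher, and at an unadjusted p under 0.05 there were 5 members and 27.6% of all probe sets. Ndufaf4, which acts with Ndufaf3 early in assembly, read 11.51, 11.05 and 11.17 on the MMS-treated knock-out arrays, against 10.14, 10.30 and 11.04 on the untreated knock-out arrays. It read 10.58, 10.97 and 10.97 on the MMS-treated wild-type arrays, against 10.22, 10.57 and 10.54 on the untreated wild-type arrays. All 6 treated arrays lay above the untreated arrays of their genotype, with an averaged rise of 0.58 ± 0.16 (1 SE, limma adjusted p = 0.0463).

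This call depended on single arrays. It was lost when any 1 of 9 of the 12 arrays was left out, all but untreated knock-out array 3, MMS-treated wild-type array 1 and MMS-treated knock-out array 3 (adjusted p between 0.00877 and 0.117 over the 12 fits), with the mean of the gene's probe sets (0.0599) and with the 5′ to 3′ covariate (0.203). The averaged difference itself was 0.49 to 0.71 over the 12 fits, 0.53 with the mean of probe sets and 0.46 with the covariate. It was kept without both untreated arrays numbered 3 (0.73, adjusted p = 0.0198). Neither genotype passed alone: the response was 0.75 ± 0.23 in knock-out liver (limma adjusted p = 0.0929) and 0.40 ± 0.23 in wild-type liver (limma adjusted p = 0.333).

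Of the other assembly factors none was called. Ndufaf7, a methyltransferase that modifies a core subunit of complex I, read 9.43, 9.24 and 9.49 on the MMS-treated wild-type arrays, against 9.93, 9.78 and 9.92 on the untreated wild-type arrays (-0.49 ± 0.14, limma adjusted p = 0.0624). It passed with the 5′ to 3′ covariate (adjusted p = 0.0235) and among the brightest 50% of probe sets (0.0291). In knock-out liver the difference was -0.074 ± 0.14. Ndufaf1, which binds an assembly intermediate of the membrane arm, read 11.18, 11.06 and 11.11 on the MMS-treated knock-out arrays, against 10.89, 10.84 and 10.97 on the untreated knock-out arrays, and in wild-type liver it read 10.55, 10.59 and 10.93 after MMS, against 10.97, 10.90 and 11.11 without it. Its responses were 0.22 in knock-out and -0.31 in wild-type liver, and their difference of 0.53 ± 0.18 was not called (limma adjusted p = 0.196). Over the 5 genes the median response was 0.22 in knock-out and -0.31 in wild-type liver, with 0 calls in either.

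**Figure D4:**
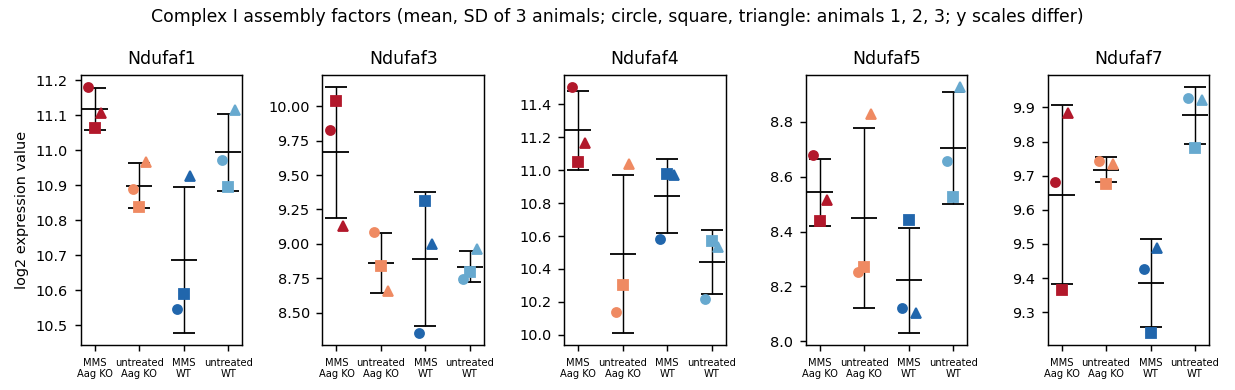
Log2 expression value of the 5 complex I assembly factors on the 12 arrays, with the mean and SD of 3 animals per group. Vertical scales differ between panels. Ndufaf4 lies at 11.05 to 11.51 in MMS-treated knock-out liver and Ndufaf7 at 9.24 to 9.49 in MMS-treated wild-type liver, below all untreated wild-type values.

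Complex IV has small subunits that exist in tissue versions. Cox6a2, Cox7a1 and Cox8b are the versions of heart and skeletal muscle, Cox6a1, Cox7a2 and Cox8a those of liver and most other tissues, Cox6b2 and Cox8c are known from testis, and Cox4i2 from lung. Promoters are shown for 2 pairs of muscle and liver versions (Cox8b with Cox8a, Cox7a1 with Cox7a2), so that each pair can be compared, and for Cox6a1 and the 1 called gene, Ndufaf4, which hold the same motif. Each run is the 250 bases before the gene's start in RefSeq (GRCm38.p6), on the gene's own strand, and capitals mark matches to 4 short motifs described further on. The positions are chr7:140900447-140900696, minus strand for Cox8b, chr19:7217617-7217866, minus strand for Cox8a, chr7:30183921-30184170, plus strand for Cox7a1, chr9:79759854-79760103, minus strand for Cox7a2, chr5:115348959-115349208, minus strand for Cox6a1 and chr4:24897833-24898082, plus strand for Ndufaf4. The last capitals of Cox8a begin a match that runs on past the start.
Cox8b: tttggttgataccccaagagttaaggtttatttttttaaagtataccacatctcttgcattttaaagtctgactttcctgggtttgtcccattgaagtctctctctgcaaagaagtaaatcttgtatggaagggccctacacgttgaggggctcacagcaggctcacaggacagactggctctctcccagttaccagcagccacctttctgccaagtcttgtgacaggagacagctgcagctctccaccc
Cox8a: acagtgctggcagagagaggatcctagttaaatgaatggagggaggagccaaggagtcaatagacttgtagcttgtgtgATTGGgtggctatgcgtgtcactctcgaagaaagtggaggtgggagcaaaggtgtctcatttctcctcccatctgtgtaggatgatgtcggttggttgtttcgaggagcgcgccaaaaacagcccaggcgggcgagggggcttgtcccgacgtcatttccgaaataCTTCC
Cox7a1: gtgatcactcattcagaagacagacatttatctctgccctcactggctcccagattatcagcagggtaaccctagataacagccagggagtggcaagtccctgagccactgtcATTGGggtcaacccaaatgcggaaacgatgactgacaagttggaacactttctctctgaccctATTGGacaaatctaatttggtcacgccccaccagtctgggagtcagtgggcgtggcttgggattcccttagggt
Cox7a2: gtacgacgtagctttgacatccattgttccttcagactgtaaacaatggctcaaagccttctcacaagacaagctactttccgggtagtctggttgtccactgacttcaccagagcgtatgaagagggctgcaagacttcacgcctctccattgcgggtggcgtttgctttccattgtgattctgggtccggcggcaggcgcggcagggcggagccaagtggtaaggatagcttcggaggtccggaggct
Cox6a1: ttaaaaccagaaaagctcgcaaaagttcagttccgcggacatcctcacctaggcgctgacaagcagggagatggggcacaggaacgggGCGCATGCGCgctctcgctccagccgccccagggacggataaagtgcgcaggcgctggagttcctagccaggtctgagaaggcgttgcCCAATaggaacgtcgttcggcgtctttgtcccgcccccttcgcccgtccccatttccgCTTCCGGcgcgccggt
Ndufaf4: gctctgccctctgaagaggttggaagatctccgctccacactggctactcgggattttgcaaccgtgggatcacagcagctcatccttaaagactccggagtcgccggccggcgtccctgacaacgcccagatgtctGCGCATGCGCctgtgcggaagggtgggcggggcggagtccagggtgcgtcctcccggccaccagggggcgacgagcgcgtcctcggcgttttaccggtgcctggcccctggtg

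The muscle versions were high on 2 untreated arrays. Cox6a2 read 11.40 on untreated wild-type array 3 and 9.01 on untreated knock-out array 3, and 6.22 to 6.65 on the other 10 arrays. Cox8b read 11.33 and 8.63 on those arrays and 4.99 to 6.69 on the others. Cox7a1 read 9.13 on untreated wild-type array 3, and its 7.22 on untreated knock-out array 3 lay within the 6.69 to 7.25 of the other 10. The testis version Cox6b2 was also highest on untreated wild-type array 3 (7.65, others 5.81 to 6.80 outside both arrays numbered 3).

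Markers of skeletal muscle that encode no respiratory chain protein stood out on the same arrays. Of 12 markers, 11 were higher on untreated wild-type array 3 than on all the other 10 arrays, 8 of them by more than 2 on the log2 scale, and 8 were higher on untreated knock-out array 3, 5 by that much. Acta1, skeletal muscle actin, read 11.9 and 9.01, against 4.03 to 5.48 on the other 10. Mb, encoding myoglobin, was the exception, at 6.22 and 6.49 against 5.80 to 6.67. The mean of the 12 markers was 9.64 on untreated wild-type array 3 and 7.43 on untreated knock-out array 3. On untreated arrays 1 and 2 of both genotypes it was at most 5.75. In MMS-treated knock-out and wild-type liver it was at most 5.59 and 5.74. The high values were therefore those of single arrays and not of the untreated groups. In whole tissue, the number of cells of a type and the RNA per cell cannot be told apart.

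The liver versions of the same subunits did not stand out on these arrays. Cox8a read 12.39 and 12.35 there and 12.17 to 12.60 on the others, and Cox7a2 14.05 and 14.09 against 13.97 to 14.13. Cox6a1, which varied more between arrays, read 13.13 and 13.20 there, against 13.08 to 13.62. The wild-type MMS responses of Cox6a2, Cox8b and Cox7a1 were -1.82 ± 1.09, -0.999 ± 1.30 and -0.62 ± 0.51, the knock-out responses -1.03, -1.28 and 0.057, and none was called. Without both untreated arrays numbered 3 the wild-type responses became -0.22, 0.90 and 0.18, again with no call. With these 3 genes set aside, the mean of the other 14 complex IV genes, centred per gene, was -0.065 ± 0.026 in MMS-treated and 0.051 ± 0.026 in untreated knock-out liver, and -0.045 ± 0.066 in MMS-treated and 0.059 ± 0.026 in untreated wild-type liver (SD, n = 3 each).

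**Figure D5:**
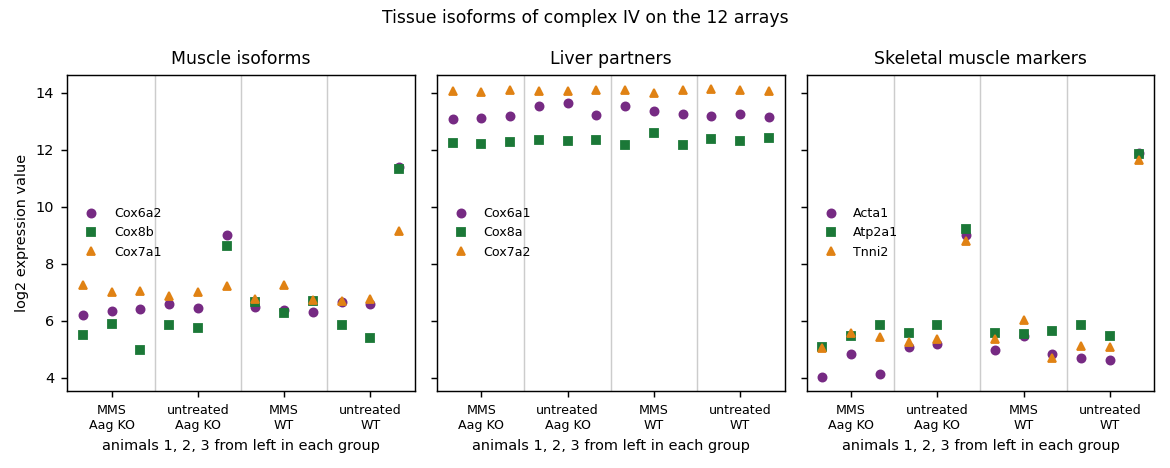
Log2 expression values of 3 muscle isoforms of complex IV (left), their liver partners (middle) and 3 skeletal muscle markers (right) on the 12 arrays, in groups of 3 from MMS-treated knock-out to untreated wild type. Animal 3 of each untreated group stands out for Cox6a2 (9.01 and 11.4 in knock-out and wild type) and Acta1 (9.01 and 11.9), while the liver partners are level.

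Among other small subunits of complex IV none was called. Cox7c, a subunit at the surface of the complex, read 7.87, 7.77 and 8.09 on MMS-treated wild-type arrays, against 8.28, 8.40 and 8.24 on untreated wild-type arrays (-0.40 ± 0.15, limma adjusted p = 0.147). On the MMS-treated knock-out arrays it read 8.44, 8.39 and 8.51, above all treated wild-type arrays (knock-out minus wild type 0.54 ± 0.15, limma adjusted p = 0.141). The other Cox7c probe set read only 3.77 to 4.89 on all arrays. Its responses were -0.14 in wild-type and -0.085 in knock-out liver, where that of the probe set used was 0.15. The testis version Cox8c read 5.92, 6.53 and 6.73 on MMS-treated knock-out arrays, against 7.0002, 7.11 and 6.90 on untreated knock-out arrays (-0.61 ± 0.22, limma adjusted p = 0.122). Its level was low on all arrays, and the 6 measured testis markers also had lower values after MMS in knock-out liver (median -0.87, 0 of 6 called). The mean of these markers was high on untreated knock-out arrays 1 and 2 (7.14 and 7.06). On untreated knock-out array 3 it was 6.07, and on the MMS-treated knock-out arrays 5.43, 5.92 and 6.11. The part of these markers in the Cox8c value was not tested.

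No member was called for loss of Aag, in comparisons that use the same arrays as the MMS responses. In untreated liver 0 of 84 passed, with 0.0398% of all probe sets called, and 0 members (7.16% of probe sets) had an unadjusted p under 0.05. The members' median, knock-out minus wild type, was -0.046, and 81 intervals lay within a 2-fold change. In MMS-treated liver 0 of 84 passed (0.0177% of probe sets called), with 8 at an unadjusted p under 0.05 (18.4% of probe sets) and a median of 0.040. Averaged over treatments 0 passed (0.0265% called) and 1 had an unadjusted p under 0.05 (7.9%).

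The difference between the responses of the genotypes was tested directly. Here 0 of 84 members passed and 0.0% of all probe sets did, and 10 members and 17.7% of probe sets had an unadjusted p under 0.05. The interval of this difference was wide, within a 2-fold change for 70 genes and within 0.5 on the log2 scale for 31, so that moderate differences between genotypes would not be detectable with 3 animals per group. For Cox6a1 and Uqcrq, 2 members, treated and untreated arrays did not overlap in either genotype and the responses had opposite signs, as in 1.87% of all probe sets. At the other Cox6a1 probe set the responses were -0.075 in wild-type and 0.013 in knock-out liver, opposite in sign to those of the probe set used. The largest difference among complex III genes was that of Uqcrc1 (0.78 ± 0.28, limma adjusted p = 0.205), which was high on the arrays with the unusual 5′ to 3′ signal.

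Promoters were found in the RefSeq table for 70 of the 84 genes, 75 promoters in all, each from 250 bases before to 50 after the start. On either strand, CATGCGC, part of the site of NRF1, a regulator of respiratory genes, was present in 14 of 75 (18.7%), and in 3.91% of all 32851 promoters. CCGGAAG, a site of ETS factors such as GABP, was present in 18 (24%), against 8.86% of all promoters. AAGGTCA, bound by oestrogen-related receptors, was present in 7 (9.33%), against 4.72%, and CCAAT, bound by NFY, in 29 (38.7%), against 37.4%. At least 1 of the NRF1 and ETS motifs was present in 26 promoters (34.7%), against 12.1% of all. In the promoters shown above, those of Cox6a1 and Ndufaf4 hold the NRF1 motif, those of Cox6a1 and Cox8a the ETS motif, that of Cox7a1 only CCAAT, and those of Cox7a2 and Cox8b none of the 4. These are matches of letters, and binding was not measured.

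Genes that serve the chain without belonging to it were few among the calls, in lists chosen with earlier results known. Among 15 measured regulators of mitochondrial biogenesis, 0 rose and 1 fell in wild-type liver after MMS, where 6.44% of all probe sets were called. The 1 that fell was Ppargc1a, the coactivator PGC-1α that works with NRF1 and oestrogen-related receptors. It read 8.33, 8.21 and 8.22 on MMS-treated wild-type arrays, against 10.44, 9.08 and 10.09 on untreated wild-type arrays (-1.62 ± 0.32, limma adjusted p = 0.0172). In knock-out liver it read 8.48, 8.77 and 9.01 after MMS, against 9.53, 9.05 and 9.89 without it (-0.74 ± 0.32, limma adjusted p = 0.18). The treated and untreated arrays did not overlap in either genotype. The median of the 15 regulators was 0.013 in wild-type and 0.081 in knock-out liver.

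In wild-type liver, where 6.44% of all probe sets were called, 1 of 9 measured ubiquinone synthesis genes fell. It was Coq8a, a kinase-like protein of that pathway (-1.13 ± 0.18, limma adjusted p = 0.00718). Of 15 citric acid cycle genes 1 fell, Idh3a, a subunit of isocitrate dehydrogenase (-0.66 ± 0.16, limma adjusted p = 0.0386). Of 14 mitochondrial proteases and chaperones 1 fell, Clpx, the unfoldase of the matrix protease (-1.40 ± 0.29, limma adjusted p = 0.0201). None of these genes passed in knock-out liver, where their differences were -0.44, 0.38 and 0.15. In wild-type liver 0 of 6 further complex I assembly factors, 0 of 8 assembly factors of complexes II and III, 0 of 16 of complex IV, 0 of 3 ATP synthase assembly and inhibitor genes, 0 of 7 electron carriers and 0 of 9 ATP and phosphate carriers were called. In knock-out liver 0 genes of these lists were called, where 1.51% of all probe sets were.

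Averaged over the genotypes, where 11.3% of all probe sets were called, further genes passed. Tmem186, a complex I assembly factor, rose by 0.83 ± 0.15 (limma adjusted p = 0.00812) and Timmdc1, another, fell by 0.72 ± 0.20 (limma adjusted p = 0.0428). Sdhaf2, which attaches the flavin to complex II, rose by 0.43 ± 0.11. In the citric acid cycle Fh1, fumarate hydratase, rose by 0.26 ± 0.069, while Cs, citrate synthase, fell by 0.33 ± 0.083 and Dlat, a subunit of pyruvate dehydrogenase, fell by 0.44 ± 0.13. Of the subunits encoded in mitochondrial DNA 1 was measured here, and it was not called (averaged difference -0.17).

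Some markers of other liver cell types were called lower after MMS in wild-type liver and averaged over the genotypes. Of all probe sets 4.45% and 6.66% were called lower there. In wild-type liver after MMS 4 of 8 endothelial markers fell (median -0.59), 3 of 8 stellate cell and fibroblast markers fell (median -1.21) and 3 of 6 lymphocyte markers fell (median -0.72), while 0 of 9 hepatocyte markers were called (median -0.065). Among 7 macrophage markers 1 rose and 1 fell. The stellate cell and fibroblast markers averaged 10.09 on untreated wild-type array 3, the array with muscle transcripts. They averaged 9.36 and 9.02 on untreated wild-type arrays 1 and 2, and 8.19 to 8.67 on the MMS-treated wild-type arrays. Averaged over the genotypes the counts were again 4, 3 and 3 (medians -0.38, -0.41 and -0.61). In knock-out liver 0 markers of these 5 lists were called, although all 6 lymphocyte markers had values below 0 (median -0.49). The part of these markers in the members' values was not tested.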

How the data were processed

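Log2 expression values per probe set were deposited by the authors, who made them with RMA, per the submitters' processing notes; the steps and version used were not given in the sources used here. No detection call came with them, and scaling to a common level hides a change shared by most genes. The table holds 22690 rows; 64 of these are array controls, and 22626 were tested. Members, gene lists and most settings were chosen with earlier results of these data known. All 84 members matched RefSeq gene names. Probe sets whose names end in _s_at or _x_at, such as those of Cox8a and Cox5b, may bind several transcripts.

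limma 3.58.1 in R 4.3.3 fitted 1 mean per group to all 12 arrays, with moderated variances on 8 residual degrees of freedom, with two-sided Benjamini-Hochberg adjusted p-values over the 22626 probe sets and a threshold of 0.05, for 7 contrasts. Values after ± are standard errors of the fit unless given as SD. Complexes and lists are described by counts and medians, without a test. Groups come from the labels, and replicates are separate animals by their titles. Named genes were Mpg, called members, the 2 members per complex with the smallest p in the treatment and genotype contrasts, core subunits, tissue isoforms with their liver partners, and up to 4 genes per list with the smallest p. The fit was tested on simulated data first. Sequences and motif counts come from RefSeq promoters (GRCm38.p6). Alternatives were quantile normalization, median centring, 2 brightness filters, array weights, a trended robust variance, a block for the animal number, the compared groups alone, 1 probe set or the mean of probe sets per gene, the 5′ to 3′ ratio as a covariate, and leaving out arrays. The precision is limited by 3 arrays per group.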

Additional observations from a re-analysis of the deposited data

Results flagged for a closer look

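For 2 members the MMS responses ran in opposite directions in the genotypes, with treated and untreated arrays apart in both, a pattern shown by 1.87% of all probe sets. Cox6a1, the liver version of a small complex IV subunit, read 13.08, 13.12 and 13.16 on MMS-treated knock-out arrays, against 13.52, 13.62 and 13.20 on untreated knock-out arrays, and 13.52, 13.34 and 13.26 on MMS-treated wild-type arrays, against 13.18, 13.23 and 13.13 on untreated wild-type arrays. Its response differed by -0.5145 on the log2 scale, knock-out minus wild type (limma adjusted p = 0.206). This pattern held for the probe set used. The other Cox6a1 probe set had responses of -0.075 in wild-type and 0.013 in knock-out liver, opposite in sign to those of the probe set used. Uqcrq, a small complex III subunit, read 12.89, 12.70 and 12.66 on MMS-treated knock-out arrays, against 12.57, 12.41 and 12.64 on untreated knock-out arrays, and 12.40, 12.64 and 12.65 on MMS-treated wild-type arrays, against 12.75, 12.73 and 12.84 on untreated wild-type arrays. Its response differed by 0.4235 in the same direction of subtraction (limma adjusted p = 0.242). Of its 4 probe sets, 1 had a wild-type response and 2 a knock-out response opposite in sign to the one used. Neither difference passed the test.

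Of all probe sets 6.44% were called after MMS in wild-type liver and 11.3% averaged over the genotypes. Among the 72 member probe sets that did not represent their gene, 1 was called. It belongs to Ndufs4, an accessory subunit of complex I, and read 7.79, 7.71 and 8.42 on MMS-treated knock-out arrays, against 8.63, 8.496 and 8.74 on untreated knock-out arrays, and 8.18, 7.86 and 8.20 on MMS-treated wild-type arrays, against 8.89, 8.63 and 8.95 on untreated wild-type arrays. It was lower after MMS, by a log2 difference of -0.7472 in wild-type liver (limma adjusted p = 0.0440) and of -0.6962 averaged over the genotypes (limma adjusted p = 0.0104). The brightest Ndufs4 probe set, which stood for the gene, differed by -0.13 in wild-type and 0.15 in knock-out liver, without a call. The remaining Ndufs4 probe set, at 11.39 to 11.72 on the 12 arrays, differed by -0.0082 and -0.15, also without a call. Which transcript ends the 3 probe sets measure was not tested.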

How the results depend on the processing

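Results for single genes and medians of complexes, 100 in all, were compared over 25 settings. Of 2417 values 2317 were rated the same, 49 newly passed the threshold and 12 no longer passed. Another 38, all medians, moved by at least the SD between arrays of a group. A gene's change of sign counted as reversed only if either value was called or both exceeded their SE. Values rated the same may therefore differ in sign. By this rule 1 reversed, the averaged response of Cox8b, which was 0.2841 without both untreated arrays numbered 3 (chosen after seeing the data). The wild-type responses of Cox8b and Cox7a1 also changed sign in that setting, without counting as reversed. Calls in wild-type liver, 0 in the main model, were 1 under either brightness filter, the mean of probe sets, the 5′ to 3′ covariate or without both knock-out arrays numbered 3 (Ndufaf7 each time), 2 with array weights, and 0 to 1 when 1 array was left out (1 without untreated wild-type array 2, Cox6b2, or without MMS-treated knock-out array 2 or 3, Ndufaf7). The share of all probe sets called there was 8.42% to 14.5% under the first 5 of these settings and 21.5% with array weights. Calls in knock-out liver were 1 with the 50% filter (14.8% of all probe sets), 6 without both knock-out arrays numbered 3 (14.7%), 22 when arrays were weighted by quality (25.6%), and 0 to 7 over single arrays left out. Averaged over genotypes, calls were 2 under either filter or without both knock-out arrays numbered 3 (18.3% to 25.4%), 12 with array weights (33%), 0 with the covariate (5.13%), and 0 to 4 over single arrays left out (4 without MMS-treated knock-out array 3, with 19% of all probe sets). Between treated genotypes calls were 3 without both knock-out arrays numbered 3 (5.98%), 3 with weighted arrays (6.55%), and 0 to 1 over single arrays left out (1, Ndufaf3, without MMS-treated knock-out array 3); for the difference of responses they were 7 with array weights (10.4%).

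Median centring moved the wild-type medians to 0.10 (complex I), 0.061 (complex II), 0.11 (complex III) and 0.11 (ATP synthase), as the median of all probe sets moved to 0.14, and that of complex II in knock-out liver to -0.14. Array weights gave -0.054 for complex II in wild-type and 0.18 for complex III in knock-out liver, and complex III was 0.21 without both knock-out arrays numbered 3. The mean of probe sets gave 0.13 (complex II) and 0.15 (ATP synthase) in knock-out liver, and the covariate 0.037 (complex II), -0.064 (complex III) and -0.026 (ATP synthase). Without single arrays, wild-type medians lay at -0.141 to -0.0147 (complex I) and -0.150 to -0.0072 (ATP synthase). The causes were not tested.

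The labels do not say that animal numbers mark a shared batch, and they were not used as pairs: same-numbered deviations correlated at -0.48 to 0.40 between groups, although 8 of 12 arrays correlated best with their own number, so pairing is unsettled. With the number as a replicate block, calls were 1 in wild-type liver (Ndufaf7) and 0 averaged over genotypes (Ndufaf4, adjusted p = 0.0542). Without a detection call, values of the 7 members averaging below 8 may lie near background.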
